A study of Mus musculus with 6 samples.

Results

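Of the 26539 H3K27me3 domains listed in mouse neural stem cells (NSCs), 736 were at least 20000 bp wide, and these large domains are described here. They were chosen by width alone, taken from the authors' NSC H3K27me3 peak list, so their width, reads and fold in that list are given as description. They made up 2.77% of the domains, 23.2 Mb or 13.4% of the listed length, and 19.3% of the immunoprecipitated reads in listed domains. The NSCs, a C57BL/6 line made from embryonic stem cells, were taken on day 0 at passages 25 to 30. The neurons were their progeny on day 11, after 4 days in a medium with less FGF2 and 7 days in N2B27, purified by cell sorting for RedStar, a fluorescent reporter driven by the Tau promoter. The sorted cells are therefore defined by 1 reporter of a pan-neuronal gene, while the NSCs were labelled negative for it. Chromatin fixed in 1% formaldehyde and sheared to 300 bp was precipitated for H3K27me3 or H3K4me3. NSCs and neurons each gave 1 library per antibody and 1 input, so no difference given here has a replicate check or a test.

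H3K27me3 is laid down by Polycomb repressive complex 2, whose EZH1 or EZH2 subunit methylates lysine 27 of histone H3 and whose EED subunit binds the finished mark, which lets it spread along chromatin. Wide H3K27me3 domains are known over CpG-rich clusters of genes for developmental transcription factors that are silent in the cell at hand. H3K4me3 marks active and poised promoters, and promoters that carry both marks are called bivalent. Marker genes were read as a check of the cell types. All 12 scored NSC markers had H3K4me3 at the start site in neurons and 11 in NSCs, with H3K27me3 at none. Of 13 scored neuron markers, 8 had H3K4me3 in NSCs and 10 in neurons. H3K27me3 lay at 6 of the 13 in NSCs and 3 in neurons. The NSC markers thus did not separate the cell types, and the neuron markers differed by few genes.

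Large domains held the start sites of 11 miRNA genes, among them members of families encoded in the Hox clusters. Set against the 152 genes that the authors' tables describe by a mouse miRNA name, this is 7.24% (all genes, 2.98%). The share is approximate. The 11 are distinct names, with mir-196b, entered more than once, counted once, and a second form of description was also accepted for them. The mature sequences below are from RefSeq (GRCm38.p6), 5′ to 3′, with the seed (bases 2 to 8) in capitals, and show which miRNAs in different domains share a seed.
mmu-miR-10a-5p: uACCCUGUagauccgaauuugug
mmu-miR-10b-5p: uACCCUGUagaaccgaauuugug
mmu-miR-196a-5p: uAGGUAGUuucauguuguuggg
mmu-miR-196b-5p: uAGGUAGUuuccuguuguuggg
mmu-miR-137-3p: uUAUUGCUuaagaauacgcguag
mmu-miR-129-5p: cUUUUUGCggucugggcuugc
mmu-miR-615-3p: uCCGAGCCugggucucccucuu
The genes for miR-10a (chr11:96178479-96178588, Hoxb domain) and miR-10b (chr2:74564127-74564194, Hoxd domain) lay in different large domains, and their products have the same seed. The seed of miR-196 was encoded 3 times, by mir-196a-1 (chr11:96126478-96126579, Hoxb domain), mir-196a-2 (chr15:102803772-102803881, Hoxc domain) and mir-196b (chr6:52180080-52180164, Hoxa domain). Positions of genes and domains are given on mm9 as the authors list them. Neuronal H3K27me3 lay over the start of 10 of the 11 (over all genes held by large domains, 87.1%), and mir-10b, in the more broken part of the Hoxd domain, was the exception. Mir-137, an abundant brain miRNA (chr3:118136761-118136862, 39.4 kb domain), had an H3K4me3 peak within 1000 bp in NSCs and none in neurons. Mir-129-2 (chr2:94081521-94081610), in a 21.6 kb domain that was 51.9% covered in neurons, had one in both. Mir-375, known from pancreatic islets, lay in the 99.4 kb domain of Fev and Ihh and also had one in both. Mir-615 (chr15:102845341-102845432) lay in the Hoxc domain, and mir-489 and mir-653 in a 21.4 kb domain on chromosome 6.

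The next 4 sequences are the 250 bases before the RefSeq start (GRCm38.p6, gene strand, 5′ to 3′) of genes that take opposite courses below. Foxa1 and Lhx1 had no neuronal H3K27me3 over the start site and kept H3K4me3, whereas Hand2 and Isl1 kept H3K27me3 and had no neuronal H3K4me3. Each CG is in capitals, since CpG-rich promoters are a known setting of both marks.
Foxa1: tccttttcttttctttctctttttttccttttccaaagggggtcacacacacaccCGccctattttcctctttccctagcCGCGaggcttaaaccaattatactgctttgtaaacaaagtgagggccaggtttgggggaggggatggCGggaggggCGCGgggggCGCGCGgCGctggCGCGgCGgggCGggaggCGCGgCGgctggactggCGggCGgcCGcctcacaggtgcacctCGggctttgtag
Lhx1: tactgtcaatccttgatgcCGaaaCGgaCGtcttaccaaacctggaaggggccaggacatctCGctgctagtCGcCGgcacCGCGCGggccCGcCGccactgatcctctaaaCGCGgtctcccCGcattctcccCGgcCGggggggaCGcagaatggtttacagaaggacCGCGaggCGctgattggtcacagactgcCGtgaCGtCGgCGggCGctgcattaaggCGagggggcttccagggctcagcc
Hand2: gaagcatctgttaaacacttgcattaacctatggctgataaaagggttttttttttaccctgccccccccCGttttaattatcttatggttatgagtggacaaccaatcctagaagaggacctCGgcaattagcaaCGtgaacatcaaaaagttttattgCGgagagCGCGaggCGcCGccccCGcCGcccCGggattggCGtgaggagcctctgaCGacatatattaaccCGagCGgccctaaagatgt
Isl1: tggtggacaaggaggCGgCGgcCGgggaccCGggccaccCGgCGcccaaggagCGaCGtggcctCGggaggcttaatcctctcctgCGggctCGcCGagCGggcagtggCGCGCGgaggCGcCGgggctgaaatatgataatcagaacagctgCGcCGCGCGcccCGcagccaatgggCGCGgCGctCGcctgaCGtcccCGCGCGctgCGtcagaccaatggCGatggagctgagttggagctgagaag
They held 21 (Foxa1, chr12:57546112-57546361), 26 (Lhx1, chr11:84525535-84525784), 15 (Hand2, chr8:57320733-57320982) and 33 (Isl1, chr13:116309689-116309938) CG, which reads the same on both strands. Over all 32851 promoters in the table the median was 6 and the upper quartile 16, and 92.1% held at least 1. The promoters of either course were thus both CG-rich, apart from Hand2, which lay just under the upper quartile. No comparison over all genes held is given, because only 261 of the 395 with a symbol had a promoter in the table.

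The large domains had a median width of 27 kb (quartiles 22.4 and 34.4 kb) and reached 239.2 kb. They held a median of 664.5 immunoprecipitated reads (281 to 11472), and the authors' fold over input had a median of 3.58 (1.17 to 9.43). It was under 2 in 30 domains. Near the threshold, 85 domains were within 1000 bp above it and 106 within 1000 bp below it. The first 3 inside, each 20000 bp wide, had 352, 352 and 363 immunoprecipitated reads and were 66%, 82% and 76% covered in neurons. The first 3 outside, each 19800 bp wide, had 345, 334 and 385 reads and were 42.4%, 87.9% and 70.7% covered.

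Chromosome 1 held 138 of the 736 (4.5% of its own NSC domains) and chromosome 6 held 85 (4.08%), against 1.25% to 3.7% on the other autosomes and none on X and Y. Input reads inside NSC domains were also higher there, at 12.9 per kb on chromosome 1 and 10.1 on chromosome 6 against 8.49 to 9.78 on the other autosomes. The median fold of large domains was 2.64 on chromosome 1 and 3.14 on chromosome 6, against 3.42 to 5.1 elsewhere. In neurons input was 11.6 per kb of listed domain on chromosome 1 and 9.05 on chromosome 6, against 7.29 to 8.7. The part of this input in the results was not tested, and values without chromosome 1 are given where it matters.

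**Figure D1:**
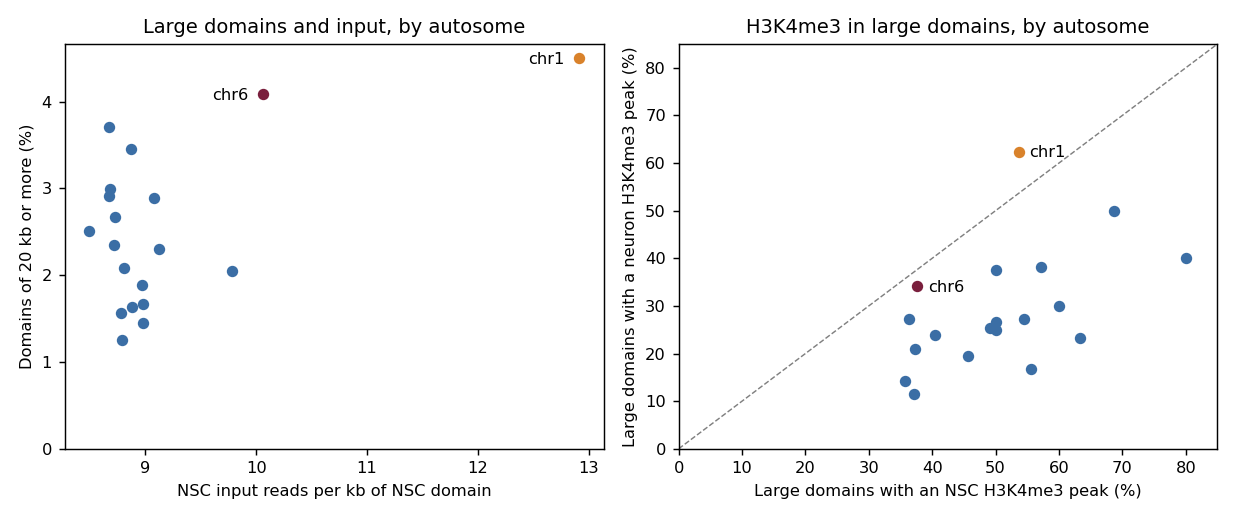
Left, share of each autosome's NSC H3K27me3 domains that are 20 kb or wider (y axis, %) against NSC input reads per kb of domain; right, share of large domains with a neuron H3K4me3 peak inside (y axis, %) against the share with an NSC peak, with equality as a dashed line. Each point is an autosome: chromosomes 1 and 6 have the most large domains and input, and chromosome 1 alone lies above equality (62.3% against 53.6%).

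Most of the length of large domains was still under H3K27me3 in neurons. Neuronal peaks covered 19.2 of 23.2 Mb (82.6%), with a median of 85% per domain (quartiles 73.4% and 93%). A neuronal peak overlapped 735 of 736, against 66.3% of all NSC domains, and 687 were covered over at least 50% of their length, against 47.9% of all NSC domains. Domains under 20 kb were 47.5% covered in all. Coverage rose through every width class, from 36.8% under 5 kb to 76.9% at 20 to 30 kb, 85.8% at 30 to 50 kb and 91.2% in the 60 domains of 50 kb or more. At a neuronal FDR (false discovery rate) under 1e-20, 64 of the 736 had no neuronal peak. A wide domain has more chances of an overlap, so covered length is a fairer comparison between widths than a count of overlaps. The widths also differed in signal. The median NSC fold was 2.52 under 5 kb, 2.41 at 5 to 10 kb, 3.27 at 20 to 30 kb and 4.69 at 50 kb or more. The part of signal strength in the rise of coverage with width was not tested. The large domains of chromosome 1 were 87.6% covered, and without them the value was 81.4%.

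**Figure D2:**
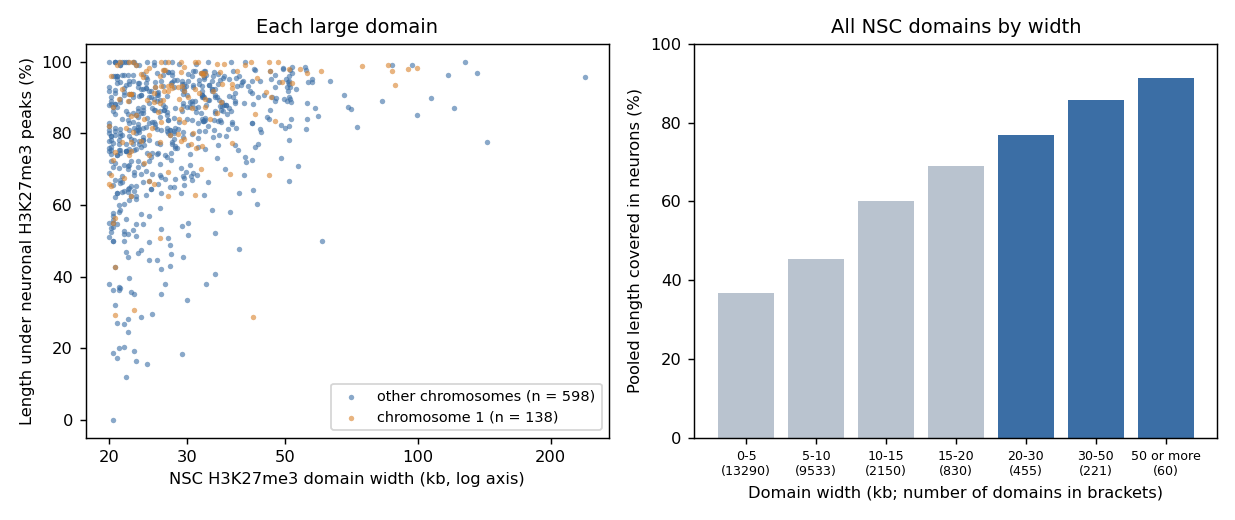
Left, length under neuronal H3K27me3 peaks (y axis, %) against NSC domain width (kb, log axis) for each of the 736 large domains, with chromosome 1 in orange; right, pooled covered length (%) of all NSC domains by width class, large domains in dark blue. The 11 domains under 25% coverage are all narrower than 30 kb, and the bars climb from 36.8% to 91.2%.

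At the upper end, 30 large domains were covered whole and 235 others over at least 90%. The widest covered whole by 1 neuronal peak was the Hoxb domain (chr11:96110800-96238599), which spans Hoxb1 to Hoxb9, genes that set position along the body axis. Next among those with genes came the domain of Tcfap2b, an AP-2 factor of neural crest and kidney (46 kb), and that of Dlx5 and Dlx6, homeobox genes of forebrain interneurons and craniofacial skeleton (40.6 kb). The domain of Otp, a homeobox factor of hypothalamic neurons, was 98.6% covered by 1 peak over 55.6 kb.

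At the lower end, 11 domains were under 25% covered and 38 others between 25% and 50%. None of the 11 was on chromosome 1, and their median width was 21.8 kb. The 1 domain with no neuronal peak was a 20.4 kb domain over the start of Samd5 (chr10:9381400-9401799), with 281 immunoprecipitated and 178 input reads in NSCs, the fewest immunoprecipitated reads of any large domain. Its start site had H3K4me3 in both (148 and 76 reads). Here and below such pairs are immunoprecipitated reads in NSCs and in neurons, each summed over all H3K4me3 peaks within 1000 bp of the start site and those of the other cell type that overlap them. The domain of Megf11, a membrane protein with EGF repeats (chr9:64218400-64241199), was 19.3% covered, by 2 pieces holding 83 neuronal reads in all against 558 in the NSC domain. The domain of Lgals12, a galectin of fat cells, and Hrasls5, a lipid-metabolising enzyme (chr19:7666600-7695799), was 18.5% covered. The other 5 of the 8 lowest (11.9% to 18.6%) held no start site. At an FDR under 1e-20 none of the 8 had a neuronal piece left.

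In neurons the large domains were mostly broken into several peaks. A mean of 3.12 neuronal peaks (median 3) overlapped each, and 641 (87.1%) had 2 or more, against 17.9% of all NSC domains, most of which are much narrower. Per 100 kb, however, pieces became fewer with width, from 16.4 under 5 kb to 11.5 at 20 to 30 kb and 6.68 at 50 kb or more. The longest piece had a median of 13.2 kb and was itself 20 kb or wider in 202 domains. In 466 domains the neuronal peaks reached past the NSC bounds.

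The breaks were short. Gaps between pieces numbered 1560, with a median of 1000 bp, and 581 of them were 800 bp, the smallest gap between any 2 peaks of either H3K27me3 list. Gaps of up to 2000 bp were 80.1% of the total, and 60 were 5000 bp or longer (up to 14600 bp). Of the 4.03 Mb without a neuronal peak, 60.9% lay between pieces and 39.1% at the ends. With neuronal peaks up to 2000 bp apart joined, the mean fell to 1.42 pieces per domain, and with 5000 bp to 1.06.

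Because the domains were chosen for width in NSCs, the reverse count was made for the 366 neuronal domains of 20 kb or more. They held a mean of 1.67 NSC peaks, 184 held 1 and 177 (48.4%) held 2 or more, and 89.9% of their length was covered in NSCs. Of the large NSC domains 34.1% (251) overlapped a large neuronal one, and of the large neuronal domains 71.3% (261) overlapped a large NSC one. Wide NSC domains were thus cut into more pieces in the neuronal list than the reverse, without chromosome 1 also (3.22 against 1.7). The lists differ in length (36053 neuronal and 26539 NSC peaks), and how far the calling of each library sets the breaks was not tested.

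**Figure D3:**
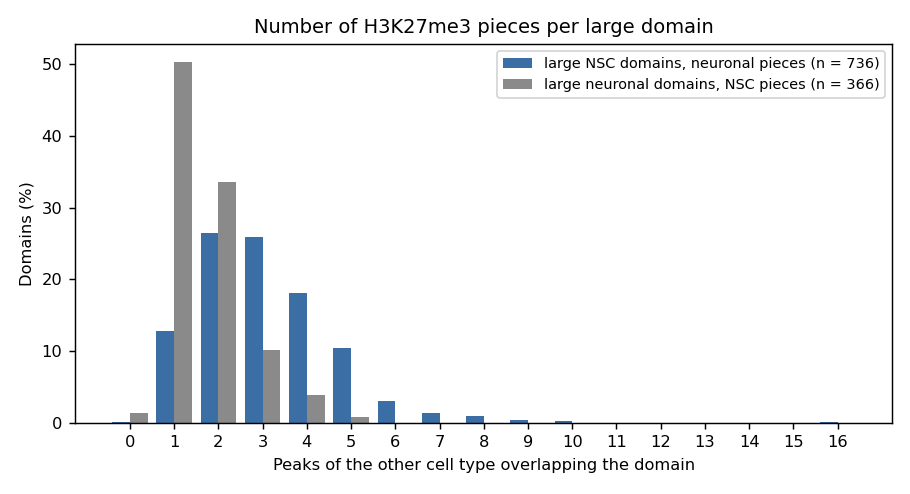
Share of domains (y axis, %) by the number of H3K27me3 peaks of the other cell type that overlap them, for 736 large NSC domains (blue, neuronal pieces) and 366 large neuronal domains (grey, NSC pieces). The grey bars peak at 1 piece (50.3%) and the blue bars at 2 and 3 pieces, with a tail to 16.

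The Hoxd domain (chr2:74477000-74620399, 143.4 kb) had the most pieces, 16, and was 77.5% covered, while the Hoxb domain of similar width stayed whole. At a neuronal FDR under 1e-20 the Hoxd domain was 53.7% covered and the Hoxb domain 100%. The breaks of the Hoxd domain were on one side. From Evx2, a homeobox gene beside the cluster, through Hoxd13 to Hoxd9, the domain was 98.3% covered by 2 pieces over 59.8 kb, and all 7 start sites stayed under the mark. The remaining 83.6 kb, which holds Hoxd8, Hoxd4, Hoxd3 and Hoxd1, was 62.7% covered by 14 pieces, and 5 of 9 start sites stayed under it. This division, at the end of the longest piece, was chosen after the values were seen. Hoxd3 lay in a gap of 8600 bp and Hoxd4 in one of 1800 bp.

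The Hoxa domain held in this set (chr6:52172600-52279999, Hoxa9 to Hoxa13 with Evx1) had 10 pieces and 89.9% coverage, and the Hoxc domain (chr15:102718400-102957599) had 9 and 95.7%. A domain of 120.8 kb over Gpr27, an orphan receptor, Prok2, a secreted prokineticin, and Eif4e3, a cap-binding protein, had 10 pieces and 87.1% coverage. The domain of Bnc1, a zinc finger factor of keratinocytes and germ cells, had 9 pieces over 59.4 kb (84.8%). That of Mycn, a Myc factor of growing progenitors (51.2 kb, chr12:12946200-12997399), also had 9 but was 66.8% covered (35.5% at a neuronal FDR under 1e-20), and the uncovered 3400 bp at its end included the Mycn start site.

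**Figure D4:**
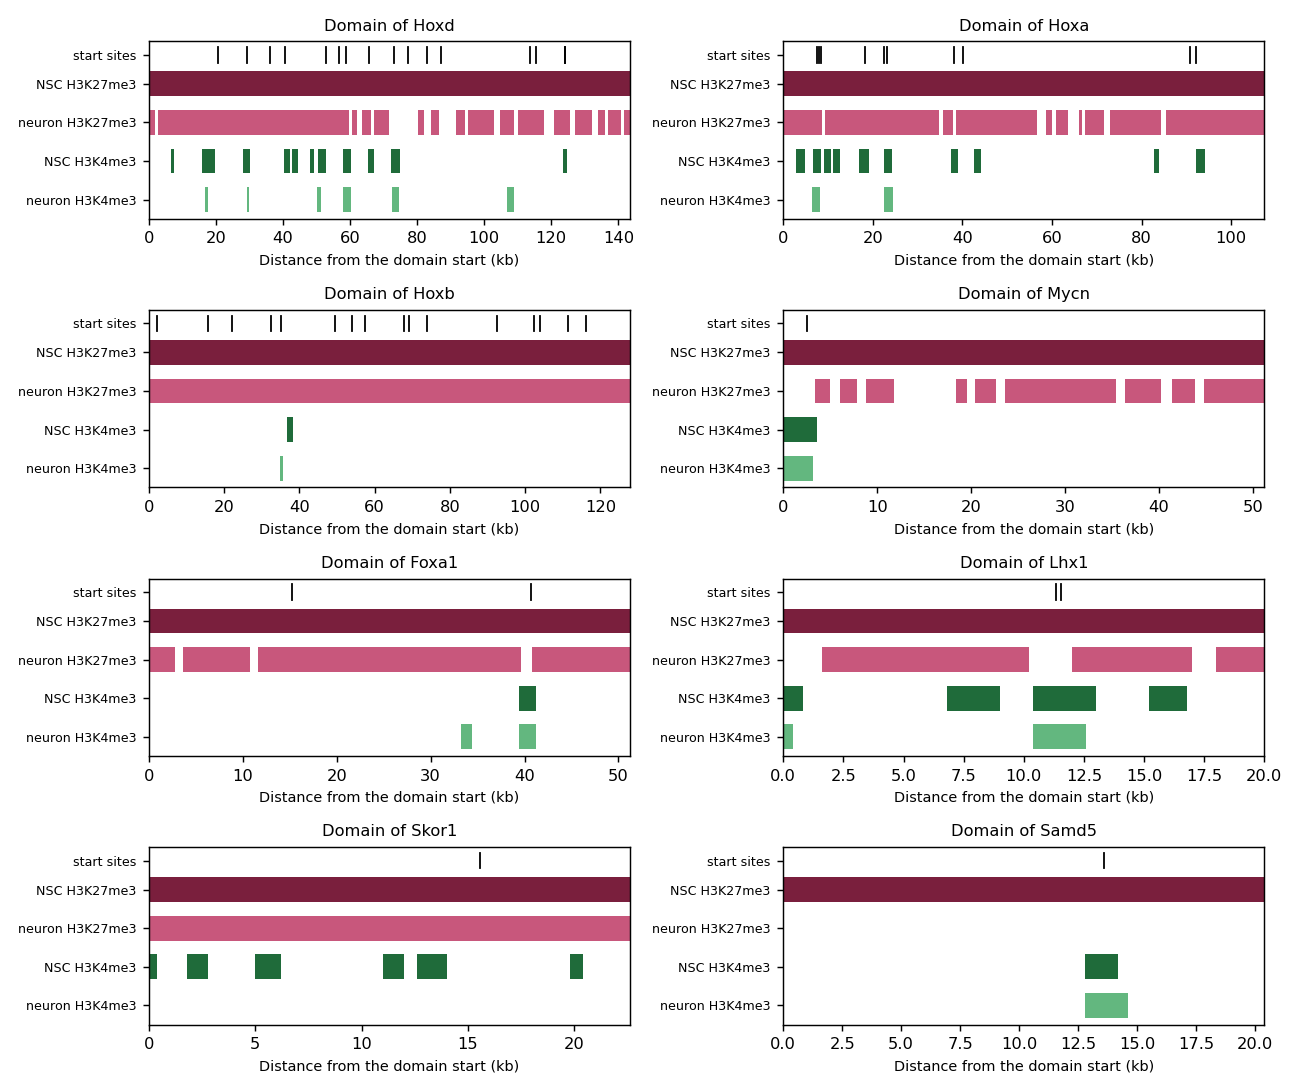
Peaks of the 4 lists over 8 large domains, drawn to scale as distance from the domain start (x axis, kb), with H3K27me3 in red shades, H3K4me3 in green shades and start sites as black ticks; peaks are clipped at the domain bounds and shown on any overlap. Hoxd is broken on its right side and Hoxb is whole, Foxa1 and Lhx1 show a neuronal gap over an H3K4me3 peak, and Samd5 has no neuronal H3K27me3 peak.

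H3K4me3 peaks lay inside many of the domains. A peak was counted inside where its midpoint was. In NSCs 567 H3K4me3 peaks lay inside large domains and 354 domains (48.1%, exact 95% interval 44.4% to 51.8%, counting error only) held at least 1, against 8.96% of all NSC domains. In neurons 377 peaks lay inside and 242 domains held 1 (32.9%, 29.5% to 36.4%), against 5.34% of all NSC domains. With H3K4me3 lists of equal length the order turned, and 26.9% of large domains held an NSC peak and 32.9% a neuron peak. Per Mb there were 24.4 NSC and 16.3 neuron peaks in large domains and 14.6 and 8.39 in smaller ones. Both lists had a peak in 185 large domains, 169 had NSC peaks alone, 57 neuron peaks alone and 325 neither. The neuron H3K4me3 list is the shorter one over the whole genome (14846 peaks with 983266 reads against 30416 in NSCs), which bears on every loss given here.

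Chromosome 1 was unlike the rest in H3K4me3. There 53.6% of large domains held an NSC peak and 62.3% a neuron peak, whereas on the other chromosomes the shares were 46.8% and 26.1%. Of the 177 neuron H3K4me3 peaks inside large domains that overlapped no NSC peak, 103 were on chromosome 1, as were 1645 of the 3148 such peaks in the whole list (21.2% of all neuron peaks). Of the 6 domains with the largest rise, 4 were on chromosome 1. The domain of Zdbf2, an imprinted gene (chr1:63280200-63365799), went from 1 H3K4me3 peak to 9, and that of Pax3, a factor of neural crest and dorsal neural tube, from 3 to 6. Off chromosome 1, the domain of Prmt8, an arginine methyltransferase of neurons, on chromosome 6 went from 2 to 6, and a domain on chromosome 17 with no start site (31.2 kb) from 0 to 5. The latter had 21.8 NSC input reads per kb, above the level of chromosome 1.

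Of the 6 domains with the largest drop, 5 held regulator genes. The Hoxa domain went from 10 H3K4me3 peaks in NSCs to 2 in neurons, Hoxc from 6 to 1 and Hoxd from 11 to 6. The domain of Skor1, a corepressor of dorsal spinal cord neurons (22.6 kb), went from 5 to 0 while 1 neuronal H3K27me3 peak covered it whole. The domain of Uncx, a homeobox gene of somites and neurons (37.8 kb), went from 4 to 0 at 86.2% coverage. A domain on chromosome 1 with no start site (46 kb) went from 6 to 2, at 68.3% coverage. That coverage was 38.3% with as many neuronal as NSC H3K27me3 peaks and 0% at a neuronal FDR under 1e-20. In the domain of Grin2b, an NMDA receptor subunit (33.2 kb), 6 became 3. In all, 224 domains had fewer H3K4me3 peaks in neurons, 88 had more (47 of them on chromosome 1) and 424 had the same number.

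Of the 567 NSC H3K4me3 peaks inside large domains, 185 overlapped a neuron H3K4me3 peak (32.6%, 28.8% to 36.7%), against 37.0% of all NSC H3K4me3 peaks. With equal numbers of H3K4me3 peaks it was 57.3%, and with both lists at an FDR under 1e-20 it was 20.3%. The share was 26.5% in smaller domains and 38% outside domains. Position divided them more. Within 1000 bp of a start site 117 of 221 were kept (52.9%, 46.1% to 59.7%), against 89.1% outside domains. Away from start sites 68 of 346 were kept (19.7%, 15.6% to 24.2%), against 9.67% outside domains. The kept peaks were the wider (median 2000 bp) and stronger ones (median fold 5.31) in the NSC list, against 1400 bp and 3.19 for those lost. Kept and lost peaks sat under neuronal H3K27me3 about equally often, 83.2% (154 of 185) and 84.6% (323 of 382).

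Start sites of 560 genes lay in large domains, 2.98% of the 18778 genes in the authors' tables. They were in 357 domains (48.5%), against 9.16% of all NSC domains. Of these, 245 held 1 start site and 112 held 2 or more. The other 379 held none, and 185 of those overlapped no gene body in the tables either. The widest without a start site were a 117 kb domain near the Hoxb cluster (chr11:96396600-96513599, 96.2% covered), a 95.2 kb domain on chromosome 1 (97.9%) and an 87.6 kb domain on chromosome 6 (99.1%). Start sites numbered 24.1 per Mb in large domains and 15.6 per Mb in smaller ones.

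At these start sites H3K27me3 was kept in 488 of 560 (87.1%, 84.1% to 89.8%), where kept means that a neuronal peak lies over the start site and lost that none does. That compares with 70.3% of genes in any NSC domain and 66.2% (64.3% to 68.2%) in smaller domains. Without chromosome 1 the values were 86.1% and 65.5%. H3K4me3 lay within 1000 bp of 251 of the 560 in NSCs, so 44.8% were bivalent by this count (40.4% in smaller domains). It was kept at 135 of them (53.8%, 47.4% to 60.1%) and lost at 116. Over all genes with NSC H3K4me3 at the start site, 13.6% lost it. It was gained at 13 of the 309 without it in NSCs (4.21%), 8 of them on chromosome 1. Over all genes without NSC H3K4me3 at the start site, 2.81% gained it.

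At bivalent start sites the loss of H3K27me3 went with kept H3K4me3. Where H3K27me3 was lost, H3K4me3 was kept at 27 of 32 (84.4%, 67.2% to 94.7%). Where H3K27me3 was kept, H3K4me3 was kept at 108 of 219 (49.3%, 42.5% to 56.1%). Smaller domains showed the same order, 65.1% (185 of 284) against 39.9% (263 of 659). Genes in 1 domain share its peaks and are not independent, and with 1 start site per domain the counts were 18 of 21 and 77 of 162. Without chromosome 1 they were 24 of 28 and 83 of 180. With neuronal H3K27me3 peaks limited to an FDR under 1e-20 the difference fell from 35.1 to 21.2 percentage points. The 27 genes that lost H3K27me3 and kept H3K4me3 had NSC H3K4me3 peaks with a median of 160 reads, against 104.5 where both marks were kept and 49 where only H3K27me3 was. The part of peak strength in the difference was not tested. Their gaps in neuronal H3K27me3 had a median of 1600 bp (800 to 20400 bp).

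Of the 27, 22 lay in gaps under 5000 bp and 5 in wider ones, which took in all 20.4 kb of the Samd5 domain, 14200 bp of the 22.8 kb of Megf11 and 6800 bp of the 27.6 kb of Dusp8, a MAP kinase phosphatase. Foxa1, a pioneer factor of endoderm and midbrain floor plate, lay in a 51.2 kb domain that was 94.5% covered in neurons, yet its start site (chr12:58647108) fell in a gap of 1200 bp. Its H3K4me3 peak had 153 immunoprecipitated and 16 input reads in NSCs and 56 and 13 in neurons. Lhx1, a LIM homeobox factor of interneurons and kidney, lay in a 20 kb domain with a gap of 1800 bp and H3K4me3 reads of 223 and 86. Lhx4, a LIM factor of motor neurons and pituitary on chromosome 1, had a gap of 1400 bp and H3K4me3 reads of 612 and 323. Six2, a homeobox factor of kidney progenitors, had a gap of 800 bp, the smallest the list allows.

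Other genes took this course as well. Mycn had H3K4me3 reads of 282 in NSCs and 142 in neurons. St8sia2, which builds polysialic acid on the adhesion molecule NCAM, lay in a gap of 5200 bp in a 60.6 kb domain that was 49.8% covered, with H3K4me3 reads of 197 and 100. Plxna4, a semaphorin co-receptor of growing axons, had a gap of 800 bp and H3K4me3 reads of 141 and 94. Sema5b, a transmembrane semaphorin, Srcin1, a Src inhibitor of synapses, and Plag1, a zinc finger growth regulator, did likewise, with gaps of 2000, 2400 and 1200 bp. The start site of Chchd7 lay in the same gap as that of Plag1 and had the same H3K4me3 peaks, so the 2 genes cannot be told apart. Sox1, an early neural SOX factor, had no NSC H3K4me3 peak at its start site but 39 neuronal reads in one, with a gap of 1800 bp in H3K27me3. At all 27 genes the neuronal count was the lower, in a library with fewer reads in peaks, and so it was at 128 of the 135 start sites with H3K4me3 in both.

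Gene lists set the held genes in groups. In all, 137 of the 524 scored members of 8 developmental and neuronal lists lay in large domains (26.1%), against 2.98% of all genes, and they occupied 105 domains. Counted among genes in any NSC domain, 44.9% of the list members were in a large one, against 19.4% of all genes. Their H3K27me3 was kept at 128 (93.4%) and lost at 9. Of the 80 with NSC H3K4me3, 37 kept it and 43 lost it, and 3 others gained it. Over all held genes 87.1% kept H3K27me3 and 46.2% of those with NSC H3K4me3 lost it, and the counts of each list below are to be read against these shares. All 23 scored housekeeping genes and all 12 NSC markers lay outside large domains. At the share of all genes (2.98%), lists this short would also hold few or none.

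**Figure D5:**
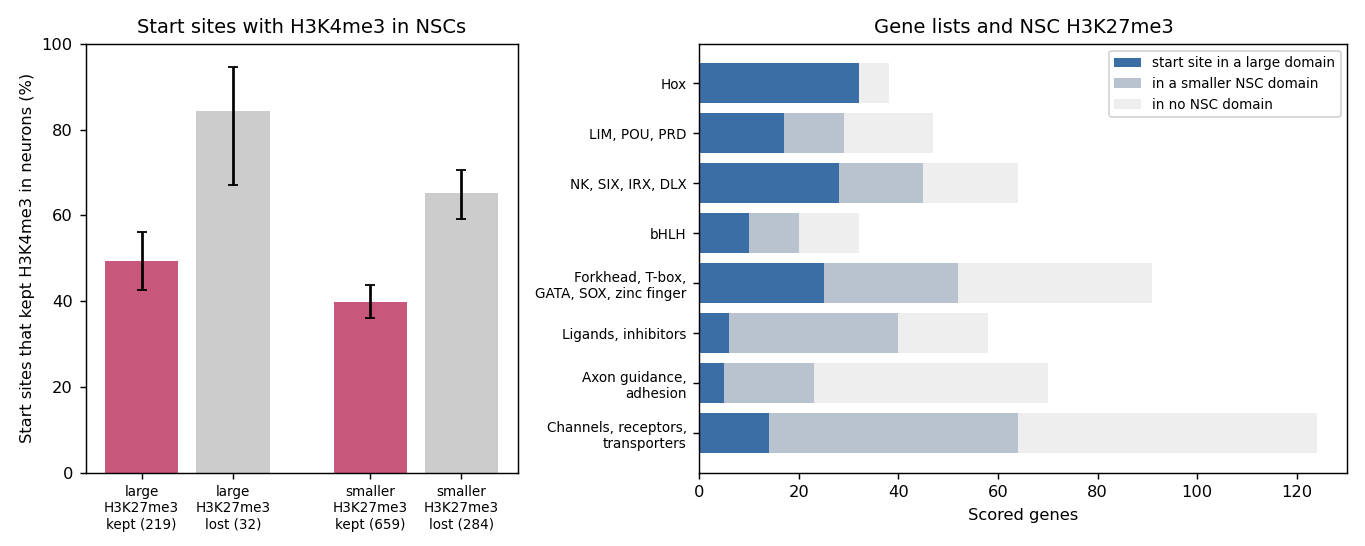
Left, share of start sites with NSC H3K4me3 that kept it in neurons (y axis, %, with exact 95% intervals for counting error), split by whether neuronal H3K27me3 was kept over the start site, in large and smaller domains (number of start sites in brackets); right, scored genes of 8 lists (x axis) by whether the start site is in a large, a smaller or no NSC H3K27me3 domain. The grey bars (84.4% and 65.1%) are above the red bars (49.3% and 39.9%), and the Hox list has no member in a smaller domain.

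Of 38 scored Hox genes, 32 lay in 5 large domains, and all of those in any NSC domain were in a large one. H3K27me3 was kept at 29, the exceptions being Hoxd3, Hoxd4 and Hoxa13. The gap at Hoxa13 was 800 bp, the smallest the list allows. H3K4me3 was present in NSCs at 13, kept at 5 (Hoxa9, Hoxa11, Hoxd3, Hoxd9 and Hoxd13) and lost at 8, all in the Hoxa, Hoxc and Hoxd domains. Hoxd10 counts as lost, although its NSC peak (52 reads) overlapped a neuronal one (27 reads) over 1000 bp from the start site. At Hoxa11, a limb and uterus patterning gene, the peak had 52 reads in either cell type. At Hoxd9 the reads were 130 and 58. In the Hoxb domain no start site had an NSC H3K4me3 peak within 1000 bp, and Hoxb7 gained a weak one (20 reads). An NSC peak lay not far beyond that limit, at 36.6 to 38.4 kb of the domain, with the Hoxb7 start site at 35.1 kb.

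Homeobox genes of the LIM, POU and PRD classes, which specify neuron types and organ primordia, had 17 of 47 in large domains. Lhx1 and Lhx4 lost H3K27me3 and the other 15 kept it. H3K4me3 was present at 12 in NSCs and lost at 8. Isl1, a factor of motor and sensory neurons, had 45 H3K4me3 reads in NSCs and no peak in neurons, in a 27.2 kb domain that was 97.1% covered. Pax2, of midbrain and kidney (39 reads), lost its H3K4me3 peak as well, and Lhx6, of cortical interneurons (84 reads), did too. Pax3 kept H3K4me3 (71 and 37 reads), in a 74.8 kb domain on chromosome 1. Pax1, of the sclerotome, and Otp had H3K4me3 in neither cell type.

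Of the NK, DLX and related homeobox genes 28 of 64 were held, in 25 domains, and Six2 was the only one that lost H3K27me3. Of 15 with NSC H3K4me3, 8 kept it and 7 lost it. Evx2 counts as lost, although its NSC peak (105 reads) overlapped a neuronal one (22 reads) over 1000 bp from the start site. Gsx1, of ventral forebrain progenitors, kept both marks, with 140 H3K4me3 reads in NSCs and 26 in neurons. Lbx1, of dorsal spinal interneurons and muscle (108 reads), lost its H3K4me3 peak. Nkx2-1, of ventral forebrain and lung, and Nkx2-3 and Pdx1, of gut and pancreas, had H3K27me3 over the start site in both cell types. None had an H3K4me3 peak within 1000 bp of it in either, and peaks further away were not counted here.

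Of the listed basic helix-loop-helix factors 10 of 32 were held, and all 10 kept H3K27me3. H3K4me3 was lost at 5 of 7. Mycn and Atoh8, held genes of this class outside the list, are left out of these counts. Mycn lost H3K27me3 and kept H3K4me3 (282 and 142 reads), and Atoh8 kept both marks (92 and 60 reads). Neurod2, a factor of maturing cortical neurons, lay in a 24.6 kb domain (88.6% covered) and had 100 H3K4me3 reads in NSCs and no peak in neurons. Neurog1, a proneural factor (64 reads), Hand2, of heart and sympathetic neurons (34 reads), and Twist2, of mesenchyme (93 reads), lost theirs as well. Sim1 and Sim2, of hypothalamus and midline, kept theirs, with 118 and 43 reads at Sim1 and 122 and 89 at Sim2. Olig3, of dorsal neural tube progenitors, had 7 neuronal pieces over 53.4 kb (70.8% covered), none of which left its start site bare.

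Forkhead, T-box, GATA, SOX and zinc finger regulators had 25 of 91 held, with H3K27me3 lost at Foxa1 and Sox1. H3K4me3 was lost at 9 of 17. Foxf1a, a forkhead gene whose symbol matched no list, is left out of these counts. It also lost H3K27me3 (gap of 1800 bp) and kept H3K4me3 (141 and 55 reads). Foxa2, of endoderm and floor plate, lost a weak H3K4me3 peak (25 NSC reads). Bcl11a, of cortical and sensory neurons, kept both marks (281 and 88 reads), as did Foxd1, of forebrain and kidney stroma (118 and 38). Fezf2, which specifies subcortical projection neurons, lay in a 99.8 kb domain with 7 pieces and had H3K4me3 in neither cell type. Gata4 and Gata6, of heart and endoderm, kept H3K27me3, and H3K4me3 was at Gata6 alone (85 and 64 reads).

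Signalling, adhesion and excitability genes had 6 of 58 secreted ligands and inhibitors, 5 of 70 axon guidance and adhesion genes, and 14 of 124 channels, receptors and transporters in large domains. All these shares, 10.3%, 7.14% and 11.3%, are above the 2.98% of all genes. H3K27me3 was lost at 1 of the 25 listed genes, Plxna4. The semaphorin Sema5b, which also lost it, was not in the list and is left out of these counts. Efna5, an ephrin ligand of axon guidance, had the most H3K4me3 reads of those held (411 and 148 reads) and kept both marks. Gdf6, a BMP-family ligand, kept both (146 and 74 reads), and Cntn2, an axonal adhesion molecule of an 89 kb domain on chromosome 1, lost H3K4me3 (60 reads). Among the potassium channels Kcna1 had 97 H3K4me3 reads in NSCs and 88 in neurons (30 and 34 input reads), and Kcna6 76 and 50 (23 and 29 input reads). Both are on chromosome 6, where input was higher. Kcna2 gained a peak (65 reads, 16 input reads). All 3 had H3K27me3 still over the start site. Grin2b kept both marks (113 and 47 reads), and Kcnh7 had the lowest coverage of the list, 45.5% of 22 kb. The neuron marker Nefl, a neurofilament subunit, lay in a 34.8 kb domain that was 90.2% covered and had H3K4me3 in both cell types (58 and 35 reads).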

How the data were processed

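The members and gene lists were chosen with earlier results of these data known. Per the submitters' processing notes, FastQC, Bowtie, SAMtools and SICER were used on mm9. The sources used here do not give versions, SICER window and gap settings or duplicate handling. For each peak the authors deposited counts of immunoprecipitated and input reads, a p-value and FDR, and a fold, the ratio of the read counts scaled by a constant per library. Each list came from 1 library against its input, with bounds in steps of 200 bp. Library totals are not known, since counts are given only inside peaks.

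A piece is a neuronal peak overlapping a domain by at least 1 bp. Coverage is the union of neuronal peaks. Start sites are gene starts (or ends, on the minus strand) of 18778 genes in the authors' tables, 4178 without a symbol, which lean towards genes near peaks. H3K4me3 at a start site is a peak within 1000 bp, and its reads are summed per list over overlapping peaks. Named domains are the 12 widest, the 8 of lowest coverage, the 6 with most pieces, most NSC H3K4me3 peaks, largest drop or rise of these, widest without start sites and widest covered whole by 1 peak, with their genes. Of each list the rule names the 4 genes in the widest domains and the 4 of lowest coverage. Some genes the rule names are not reported here. The other genes named were chosen after their values were seen. Intervals are exact (Clopper-Pearson) 95% and cover counting error only. Promoters and miRNAs were matched by symbol or by the authors' gene description. Interval steps were tested on simulated data. The software was scipy 1.17.1, numpy 2.4.6, pandas 2.3.3 and matplotlib 3.10.9, under Python 3.11.15.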

Additional observations from a re-analysis of the deposited data

How the results depend on the processing

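There were 10 main results and 86 values under other settings. Of these values, 55 stayed inside the 95% interval of the main share or within 1.5 times the main count, mean or difference. For covered length the interval took domains as units. No value changed sign, which only the difference in kept H3K4me3 could do. The order of the NSC and neuron shares of domains with H3K4me3 did turn with equal numbers of H3K4me3 peaks (26.9% and 32.9%). Moving the width to 15000 or 30000 bp gave 1566 or 281 domains, 877 or 314 start sites, 77.4% or 87.7% coverage, 17 or 0 domains without a neuronal peak, 37.7% or 61.6% of domains with NSC H3K4me3 and 25.7% or 44.8% with neuron H3K4me3. NSC peaks joined over 2000 bp gave 1789 large domains. With neuronal H3K27me3 peaks at an FDR under 1e-20, coverage was 69.6%, 64 domains had no neuronal peak, pieces averaged 1.81 and the difference in kept H3K4me3 was 21.2 points. With as many neuronal as NSC peaks 4 domains had no neuronal peak, and with an overlap of at least 50% of the neuronal peak 5 had none. Joining neuronal peaks over 2000 or 5000 bp gave coverage of 88.5% or 93% and 1.42 or 1.06 pieces. With H3K4me3 peaks at an FDR under 1e-20, 21.6% of domains held an NSC and 5.57% a neuron peak, and 20.3% of NSC peaks were kept. With equal numbers of H3K4me3 peaks, 26.9% held an NSC peak and 57.3% of NSC peaks were kept, so NSC peaks were no longer the more frequent kind (32.9% held a neuron peak). Neuron H3K4me3 was in 26.1% without chromosome 1 and 24.8% without chromosomes 1 and 6. Whole gene bodies inside numbered 344. The settings without chromosomes 1 and 6, with NSC folds of at least 2 and for the difference in kept H3K4me3 were chosen after seeing the data, and the causes of these moves were not tested beyond what each setting removes or joins. Coverage of the 40 named domains moved by over 1.5 times in 15 of 160 values, 9 of them at the stricter FDR. No paired analysis was possible because each cell type and antibody had 1 library.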

Other observations

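Other gene families were counted by symbol after the held genes had been seen. Keratin and keratin-associated genes had 9 of 43 start sites in large domains (20.9%), in 4 domains, against 2.98% of all genes, and 8 of the 9 kept H3K27me3, against 87.1% of all held genes. Olfactory receptor genes near peaks had 9 of 115 (7.83%), in 6 domains, and all 9 kept it (all held genes, 87.1%). None of 284 Zfp zinc finger genes and none of 26 vomeronasal receptor genes in the tables had a start site in a large domain. For as few genes as the vomeronasal receptors, the share of all genes (2.98%) would also give few or none.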
